A study of Mus musculus with 48 samples.

Results

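The 39 Hox genes of the mouse lie in 4 clusters, and 34 of them had a probe set of their own on the arrays of this study, which profiled 4 tissues of mice with and without Tia1. A probe set is the group of short oligonucleotides that reads 1 transcript, and a gene can have several. The members were all genes whose symbol in the chip annotation is Hox followed by a, b, c or d and a number between 1 and 13. They were 34 of the 17097 genes with a probe set of their own, held 42 of the 45037 probe sets tested, and each gene was read by its probe set with the highest mean over the 12 spinal cord arrays. Only Hoxa3, Hoxb3, Hoxb4, Hoxc5, Hoxd8 and Hoxd13 offered a choice, and 28 genes had 1 probe set. The other Hox genes were not analysed here.

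Hox genes encode homeodomain transcription factors that give the embryo its position along the axis between head and tail. Genes at the 3′ end of a cluster are switched on early and reach forward into the hindbrain, while genes nearer the 5′ end start later and farther back, a rule known as collinearity. In the developing spinal cord they sort motor neurons into columns and pools, and the midbrain and forebrain form in front of the Hox domain. Genes of equal number in different clusters descend from 1 ancestor and are called a paralog group.

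The KO mice carried a homologous recombination at exon 4 of Tia1, a gene for an RNA-binding protein of stress granules, and came from Harvard University on a C57BL6/J background. The WT mice were C57BL6/J from The Jackson Laboratory according to the methods, whereas the design text in the deposit calls them littermates. No sample received a treatment. There were 16 groups of 3 mice: KO and WT mice, at 3 months and at 6 months, with spinal cord, cerebellum, midbrain and liver from each mouse. The mice were bred in homozygous matings, so that genotype and breeding line cannot be told apart, and the labels use the same numbers for mice of either age, treated here as 12 separate animals.

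The 48 arrays gave log2 expression values normalized by the authors with Robust Multichip Average. The lowest correlation between arrays of 1 group was 0.985, and no pair of arrays was identical. The Tia1 probe set at exon 4 lay between 5.14 and 5.52 in KO spinal cord and between 7.49 and 7.70 in WT spinal cord, and KO stayed below WT in the other tissues too. Marker genes largely fitted the tissue labels: of 10 measured spinal cord neuron markers all 10 were above background in each spinal cord group, against 2 or 3 in the cerebellum groups, 7 in the midbrain groups and 1 or 2 in the liver groups. Midbrain markers separated less, with 9 of 11 above background in each midbrain group and 7 in each spinal cord group. Of 11 liver markers all 11 were above background in each liver group, against 6 in KO spinal cord at 6 months and 3 in the other spinal cord groups. One WT spinal cord at 3 months (mouse 3) had a summed signal of 14772 for 11 skeletal muscle markers, where the other 11 spinal cords lay between 1042 and 4935. The same sum was 102, 110 and 3234 in KO liver at 3 months, with all 11 markers above background, and at most 489 in WT liver at 3 months. Adipocyte markers (5 measured) summed to 367 to 784 in KO liver at 3 months and to 259 to 277 in WT liver at 3 months. As these arrays carry no detection call, background was set in each group at the 95th percentile of 81 probe sets for olfactory and vomeronasal receptors, genes of the nose. Its limit was between 3.06 and 3.58 on the log2 scale. In tissue RNA, fewer cells with a transcript and less transcript per cell cannot be told apart.

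Spinal cord was the tissue of Hox expression. Of the 34 genes, 25 were above background in all 4 spinal cord groups, 2 in some and 7 in none, whereas 0 genes were above background in all 4 groups of cerebellum or midbrain and 3 were in liver. For 23 genes each of the 12 spinal cord values exceeded each of the 36 values in the other tissues, as did 2.63% of all probe sets. In limma's moderated test with Benjamini-Hochberg adjustment over all 45037 probe sets, 28 of the 34 genes were higher in spinal cord than in cerebellum, where 29.9% of all probe sets were higher, and 28 were higher than in midbrain, where 19.6% of all probe sets were higher. The median difference of the members was 3.46 against cerebellum and 3.55 against midbrain on the log2 scale, and the median over all probe sets was -0.02 in both. No member was called lower in these 2 comparisons. Because the choice of probe set used the spinal cord values, the 28 genes with 1 probe set were also counted alone, and 23 of them were higher in each comparison.

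**Figure D1:**
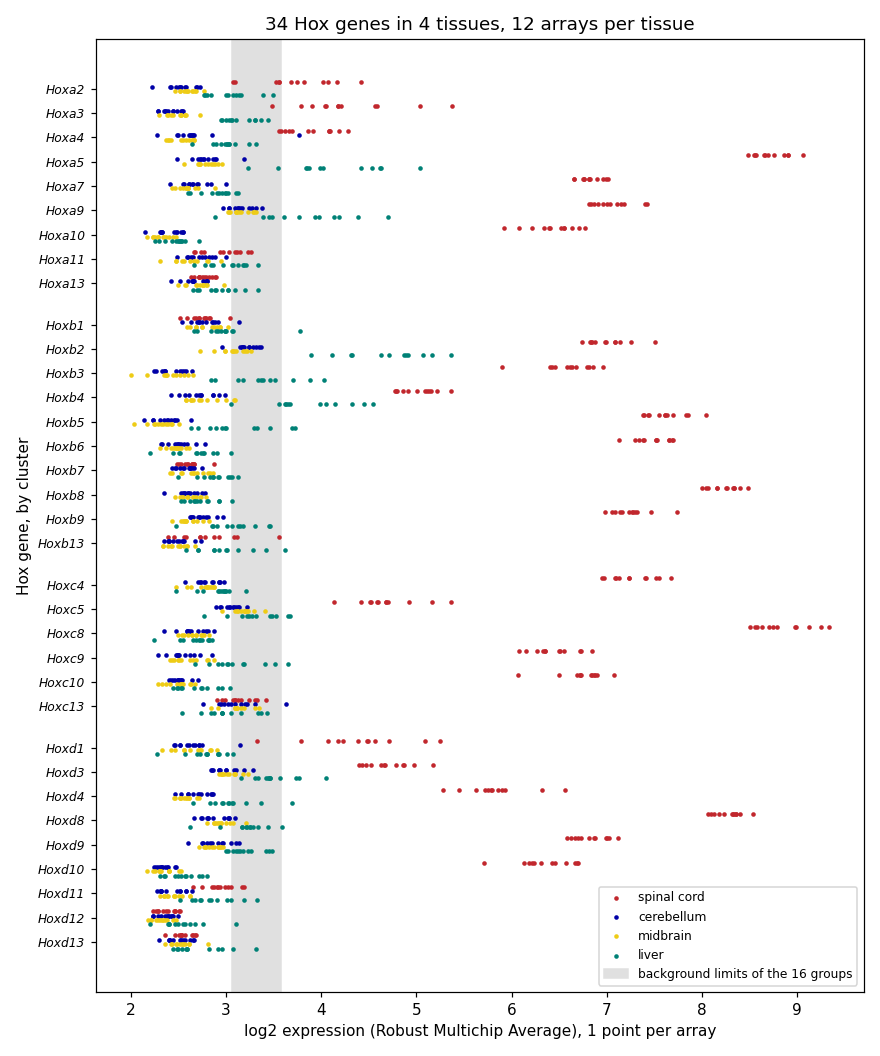
Log2 expression of 34 Hox genes (rows, by cluster and number) in each of 48 arrays, with spinal cord, cerebellum, midbrain and liver in 4 colours and the range of the 16 background limits as a grey band. In 25 genes the spinal cord groups are above background; the cerebellum and midbrain points lie near or below the band in nearly every row.

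The members above background in spinal cord differed by paralog group. All 3 measured genes of group 10 were above background in the 4 spinal cord groups, and 0 of the 7 measured genes of groups 11 to 13 were. Group 10 was below background in midbrain, where the limit gave differences of at least 3.27 for Hoxa10, 3.58 for Hoxc10 and 3.21 for Hoxd10 on the log2 scale (4.01 to 4.24 as measured). Among groups 1 to 3, 6 of 7 genes were above background, and among groups 4 to 9, 16 of 17. The 2 exceptions were Hoxb1, which marks a single segment of the embryonic hindbrain, and Hoxb7, whose probe set lay between 2.48 and 2.88 in spinal cord although Hoxb6 and Hoxb8 on either side of it were far above background. Hoxa and Hoxd had group 10 above background and group 11 not in all 4 groups. Hoxb had its boundary between Hoxb9 and Hoxb13, and Hoxc between Hoxc10 and Hoxc13, with no gene measured in between. No probe set of groups 11 to 13, nor that of Hoxb1 or Hoxb7, was above background in all 4 groups of any tissue. For these genes an absent transcript and a probe set that reads it poorly cannot be told apart.

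The clusters lie on different chromosomes (coordinates of mouse genome build GRCm38.p6, from the first to the last measured gene). Hoxa, at chr6:52162417-52260880, had 7 of 9 measured genes above background in spinal cord. Hoxb, at chr11:96194316-96368254, had 7 of 10. Hoxc, at chr15:102921131-103036856, had 5 of 6, and Hoxd, at chr2:74668225-74765142, had 6 of 9. Hoxa shares chromosome 6 with the targeted Tia1 gene, 34.14 Mb away.

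**Figure D2:**
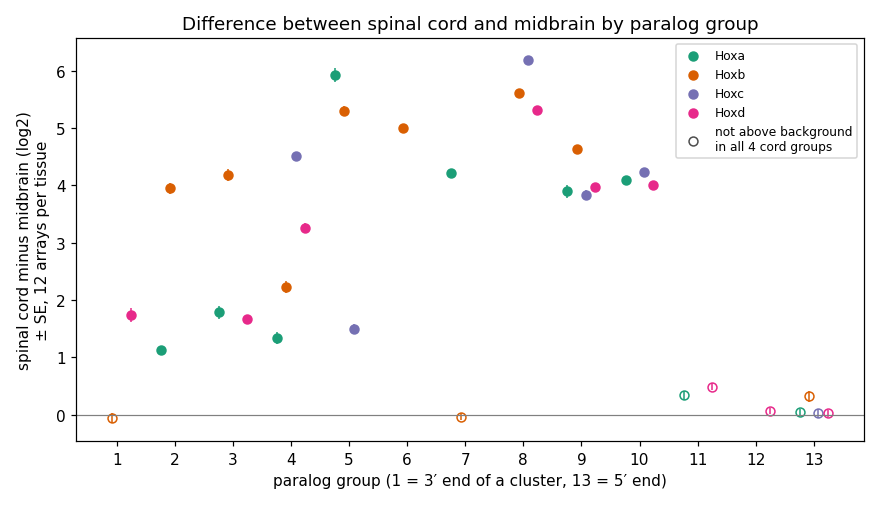
Difference between spinal cord and midbrain on the log2 scale (y, ± SE, 12 arrays per tissue) for each of 34 Hox genes by paralog group (x) and cluster (colour). Open circles were not above background in all 4 spinal cord groups; as measured, the 3 genes of group 10 lie between 4.01 and 4.24, and the 7 genes of groups 11 to 13 between 0.03 and 0.49.

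RefSeq promoter windows around the start of a gene were available for 21 of the 34 members, and they were searched on both strands for 2 motifs of known Hox regulators. The motif TTTATG, a form bound by the caudal-type (CDX) factors that switch on trunk Hox genes, was in windows of 5 members and in 11.9% of all 32851 mouse windows. The motif TGATNNAT, bound by pairs of a Hox protein and its PBX partner, was in windows of 4 members and in 8.85% of all windows. The following stretches of 30 bases show 1 match each, 5′ to 3′ on the strand of the gene, with the matched letters in capitals (some lie on the opposite strand and appear as the reverse complement). They are given for 4 genes above background in spinal cord and for 2 that were not, Hoxb1 and Hoxd11.
Hoxd4 (TTTATG, chr2:74721922-74721951, + strand): gccaaaggttaTTTATGgttctgcagagcc
Hoxa7 (TTTATG, chr6:52218728-52218757, − strand): ggcctgagcagTTTATGaggcgtttagggg
Hoxb8 (TTTATG, chr11:96281737-96281766, + strand): tgctaacagctTTTATGcgctgcagcataa
Hoxd11 (TTTATG, chr2:74679460-74679489, + strand): tcctaaaagagCATAAAtaattaaagtttg
Hoxa2 (TGATNNAT, chr6:52164924-52164953, − strand): gacttttttggATCAATCAaacagacagtg
Hoxb8 (TGATNNAT, chr11:96281883-96281912, + strand): ataataaggaaATTGATCAttaaagcttta
Hoxd11 (TGATNNAT, chr2:74682239-74682268, + strand): ttaccaccagaATCAATCAagatgaattgc
Hoxb1 (TGATNNAT, chr11:96365585-96365614, + strand): tgattggggggTGATGGATgggcgctggga
Matches thus lay in genes above background in spinal cord and in genes that were not. A match of letters is a description and not a shown binding site.

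The clusters also hold microRNA genes, which restrain Hox transcripts by pairing with them through their seed. The arrays did not measure them, and their mature sequences (RefSeq, GRCm38.p6) are shown because their places mark the clusters and their shared seeds, bases 2 to 8 in capitals, form 2 families.
miR-10a-5p (chr11:96317186-96317208, within the span of Hoxb3 and next to Hoxb4): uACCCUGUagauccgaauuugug
miR-10b-5p (chr2:74726074-74726096, within the spans of Hoxd3 and Hoxd4): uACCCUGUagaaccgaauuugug
miR-196a-5p (chr11:96265187-96265208, between Hoxb13 and Hoxb9, and chr15:102973365-102973386, between Hoxc10 and Hoxc9): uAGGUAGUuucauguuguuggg
miR-196b-5p (chr6:52230129-52230150, between Hoxa9 and Hoxa10): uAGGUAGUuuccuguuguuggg
The miR-10 family sits beside genes of groups 3 and 4, and the miR-196 family beside genes of groups 9 and 10 and beside Hoxb13. All of these genes but Hoxb13 were above background in spinal cord here.

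Below, the gene with the largest difference from midbrain stands for each paralog group, with the lowest, median and highest of the 12 arrays per tissue. Where a gene was not above background in the other tissue, the fold is a lower bound, with the background limit of the array's group in place of any lower value.

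In the rostral groups, Hoxd1 had values of 3.33, 4.43 and 5.25 in spinal cord, against 2.33, 2.67 and 2.91 in midbrain. Hoxd1 takes part in the wiring of pain-sensing neurons in mice, and its spinal cord arrays varied widely (SD within groups 0.53), yet all lay above the midbrain arrays. Hoxb2, which patterns the hindbrain and its facial motor neurons, had 6.74, 6.99 and 7.50 in spinal cord and 2.72, 3.08 and 3.26 in midbrain, at least 14.3-fold higher. Hoxb3, a hindbrain and neck gene, had 5.90, 6.62 and 6.96 in spinal cord, against 2.00, 2.41 and 2.65 in midbrain. Its second probe set differed by 1.92 (SE 0.09), against 4.18 (SE 0.10) for the one used, so the size of the difference depended on the probe set although its direction did not.

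Among the genes of neck and forelimb level, Hoxc4 had 6.95, 7.24 and 7.67 in spinal cord, against 2.48, 2.80 and 2.88 in midbrain, at least 17.4-fold higher. Hoxa5, needed for the motor neurons of the diaphragm and for lung development, had 8.48, 8.67 and 9.06 in spinal cord, against 2.56, 2.79 and 2.96 in midbrain. It was at least 47.4-fold higher than in midbrain and at least 42.0-fold higher than in cerebellum. Hoxb6, expressed in trunk and limb mesoderm and in neural tube, had 7.13, 7.51 and 7.70 in spinal cord, against 2.31, 2.48 and 2.61 in midbrain. All 3 genes left a gap of several log2 units between the tissues.

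Among the genes of trunk level, Hoxa7 had 6.65, 6.81 and 7.02 in spinal cord, against 2.43, 2.59 and 2.89 in midbrain. Hoxc8, which shapes the motor pools of the lower forelimb, showed the largest differences of all 34 members. It had 8.51, 8.77 and 9.33 in spinal cord, against 2.50, 2.66 and 2.82 in midbrain, and was at least 51.9-fold higher than in midbrain (log2 difference 6.18, SE 0.07, adjusted p = 1.71e-40 by limma). Hoxc8 had at most 2.88 in cerebellum and at most 2.86 in liver. The lowest spinal cord array of Hoxc8 was 5.63 log2 units above the highest of the 36 other arrays. Hoxb9, which promotes thoracic identity, had 6.98, 7.25 and 7.74 in spinal cord and 2.43, 2.58 and 2.83 in midbrain. Hoxc10, a gene of lumbar motor neurons, had 6.07, 6.78 and 7.07 in spinal cord, against 2.28, 2.52 and 2.68 in midbrain, at least 12.0-fold higher.

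The 3 most caudal groups were near background everywhere. Hoxc13 was above it in 2 spinal cord groups and 1 midbrain group, Hoxa11 in 1 spinal cord group and Hoxb13 in 1 liver group. Hoxd11, a gene of the forearm and of the kidney, had 2.65, 2.93 and 3.19 in spinal cord, against 2.31, 2.46 and 2.63 in midbrain. Its difference of 0.49 (SE 0.06) passed the test (adjusted p = 1.43e-08 by limma), but the probe set was below the background limit in all 4 spinal cord groups. Hoxd12, a gene of the digits, had 2.24, 2.38 and 2.52 in spinal cord and 2.18, 2.32 and 2.48 in midbrain, and the difference of 0.07 (SE 0.06) did not pass. Hoxb13, expressed in prostate and tail bud, had 2.39, 2.75 and 3.56 in spinal cord, against 2.34, 2.51 and 2.67 in midbrain, with the highest value in 1 KO mouse at 3 months (122973).

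Cerebellum and midbrain could not be separated by any member. None of the 34 was called between them, and none had an unadjusted p under 0.05, while 55.3% of all probe sets were called. The differences lay between -0.13 and 0.15 on the log2 scale. The highest values in these tissues came from 1 array, that of WT cerebellum mouse 1 at 3 months, with 3.77 for Hoxa4, where the other 11 cerebellum arrays lay between 2.28 and 2.85, and 3.63 for Hoxc13. In midbrain the group means of Hoxa9 and Hoxc5 were above background in 2 of 4 groups and those of Hoxc13 and Hoxd3 in 1, with none over 3.28.

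Liver held a weaker set of Hox transcripts. Against midbrain 30 of the 34 genes were called higher in liver, where 50.7% of all probe sets were higher, and the median difference of the members, 0.33, stood beside 0.19 for the olfactory and vomeronasal receptor probe sets. After each array was centred on those receptors, an alternative chosen after seeing the data, 17 members were higher (31.6% of all probe sets) and 2 lower (45.5%). Against cerebellum 29 were higher in liver, among 49.2% of all probe sets. The 3 genes above background in all 4 liver groups were Hoxb2, Hoxa5 and Hoxb4, and they were also the 3 with the largest differences from midbrain. Hoxb2 had 3.90, 4.79 and 5.37 in liver, against 2.72, 3.08 and 3.26 in midbrain (difference 1.63, SE 0.10, and 1.41 after centring). Hoxa5 had 3.24, 4.01 and 5.04 in liver, against 2.56, 2.79 and 2.96 in midbrain (difference 1.34, SE 0.12, and 1.12 after centring). Hoxb4, a gene that promotes growth of blood stem cells, had 3.05, 3.83 and 4.54 in liver, against 2.58, 2.73 and 3.10 in midbrain (difference 1.10, SE 0.11, and 0.89 after centring). All liver arrays of Hoxb2 and Hoxa5 exceeded all midbrain arrays, while 1 liver array of Hoxb4 lay within the midbrain range. Spinal cord exceeded liver in 25 members, among 34% of all probe sets, and was lower in 5, among 51.8%, of which none was above background in spinal cord. After centring 28 were higher (45.5% of all probe sets) and 0 lower (30.6%).

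For the comparison of genotypes in spinal cord, 0 of the 34 genes passed limma's test at 3 months, where 0.311% of all probe sets did, and 0 passed at 6 months, where 0.162% did. An unadjusted p under 0.05 was seen for 9 members at 3 months (4 higher and 5 lower in KO, against 5.21% of all probe sets) and for 4 at 6 months (2 higher, against 3.79%). At 3 months the 3 KO and 3 WT values did not overlap in 11 members, against 17.1% of all probe sets, with KO higher in 4 and lower in 7. At 6 months they did not overlap in 6 members, against 11.5% of all probe sets. The lowest adjusted p was that of Hoxc4 at 3 months (0.0981).

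Rostral and caudal genes were also described apart, divided between groups 5 and 6 after the values were seen and without a test. Of the 25 genes above background in spinal cord, 13 belong to groups 1 to 5. At 3 months 12 of these had a lower mean in KO (median difference -0.32), with 7 not overlapping. The exception, a gene of groups 1 to 3, was higher by 0.38 (unadjusted p under 0.05 by limma). The remaining 12 genes belong to groups 6 to 10, and 10 of these had a higher mean in KO (median difference 0.25), with 4 not overlapping. The median over all probe sets was -0.01. Other probe sets gave -0.05 for Hoxc5 (-0.51 as used), 0.03 for Hoxd8 (0.27), -0.32 for Hoxb4 (-0.38) and -0.20 for Hoxb3 (-0.12). Those of Hoxa3 (-0.04 as used) lay between -0.07 and 0.11. At 6 months 9 of 13 genes of groups 1 to 5 were lower in KO (median -0.12) and 11 of 12 genes of groups 6 to 10 were higher (median 0.11). With the same division and without WT mouse 3 at 3 months, the one with the muscle signal, 11 of 13 were lower and 11 of 12 higher. Leaving out each mouse in turn gave 10 or 11 of 13 lower and 9 to 11 of 12 higher at 3 months. At 6 months these counts were 8 to 10 of 13 and 8 to 12 of 12, with medians of -0.06 and 0.06 without WT mouse 1. With groups 1 to 3, 4 to 9 and 10 to 13, the division used otherwise, the medians at 3 months were -0.08, -0.05 and 0.26, and groups 4 to 9 were mixed, with 7 genes higher and 9 lower in KO.

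**Figure D3:**
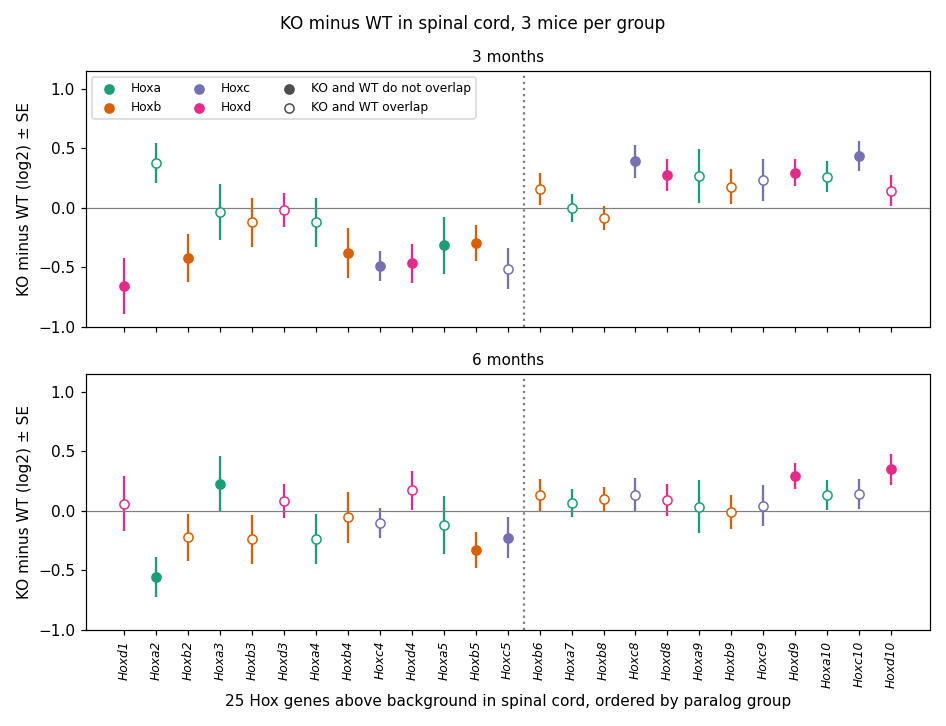
KO minus WT differences on the log2 scale (y, ± SE, 3 mice per group) in spinal cord at 3 months (upper panel) and 6 months (lower panel) for the 25 Hox genes above background there, ordered by paralog group (x). The dotted line divides groups 1 to 5 from 6 to 10; at 3 months 12 of 13 genes left of it are below 0 and 10 of 12 right of it are above 0, and none passed the test.

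At 3 months Hoxc4 had 6.97, 7.10 and 7.09 in KO (mice 122970, 122972 and 122973, in this order throughout) and 7.55, 7.41 and 7.67 in WT (mice 1, 2 and 3), a difference of -0.49 (SE 0.13). Hoxd4, which patterns the first neck vertebrae, had 5.79, 5.76 and 5.86 in KO, against 6.32, 5.93 and 6.56 in WT. Hoxa5 had 8.55, 8.55 and 8.57 in KO and 9.06, 8.66 and 8.90 in WT. In these 3 genes all KO values were below all WT values, and WT mouse 2 was nearest to KO in each.

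Hoxc8, Hoxd9 and Hoxc10 were higher in mean in KO. Hoxc8 had 8.97, 8.99 and 9.13 in KO, against 8.78, 8.51 and 8.63 in WT. Hoxd9, a gene of lumbar motor neurons and hindlimb, had 6.99, 6.87 and 7.11 in KO and 6.66, 6.82 and 6.62 in WT. Hoxc10 had 6.84, 6.90 and 6.86 in KO, against 6.07, 6.73 and 6.50 in WT, a difference of 0.43 (SE 0.13, unadjusted p = 0.00138 and adjusted p = 0.226 by limma). Every KO value of these genes was above every WT value. WT mouse 1 was lowest of the WT mice in all 3 genes of group 10, with 5.92 for Hoxa10 (6.55 and 6.41 in WT mice 2 and 3), 6.07 for Hoxc10 and 5.71 for Hoxd10 (6.57 and 6.13 in WT mice 2 and 3).

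**Figure D4:**
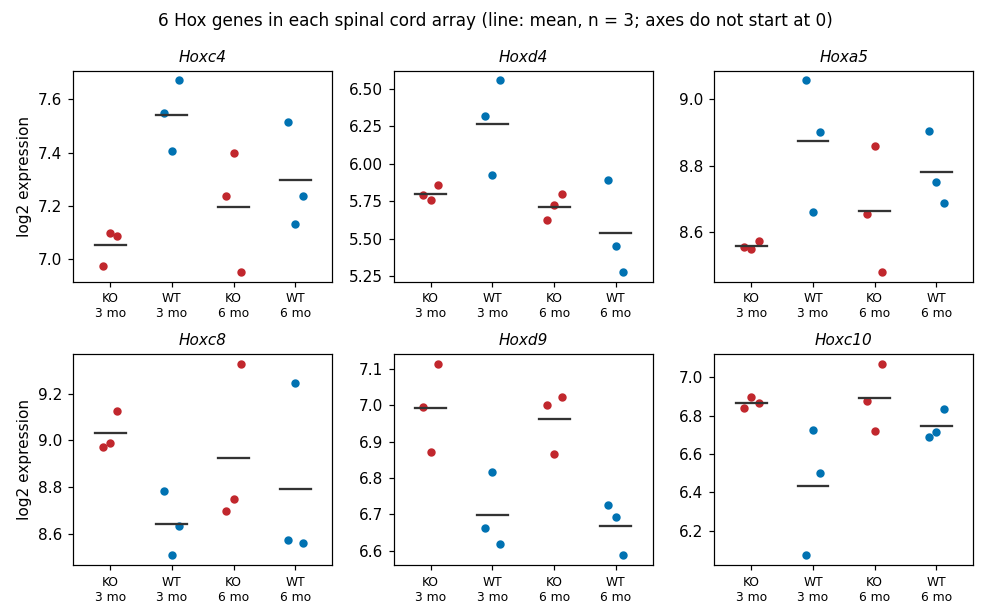
Log2 expression (y) of Hoxc4, Hoxd4, Hoxa5, Hoxc8, Hoxd9 and Hoxc10 in each spinal cord array (points) with the group mean (line, n = 3), for KO and WT at 3 and at 6 months (x). At 3 months the KO points lie below the WT points in the upper row and above them in the lower row.

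The mean deviation of the 12 caudal genes minus that of the 13 rostral genes, each from its mean over the 12 spinal cords, put this in 1 value per mouse on the log2 scale. It was 0.34, 0.09 and 0.15 in KO at 3 months and -0.44, -0.13 and -0.28 in WT at 3 months. At 6 months it was 0.28, -0.00 and 0.22 in KO and -0.29, -0.01 and 0.07 in WT. The genotypes were apart at 3 months and overlapped at 6 months. Because the genes were divided by these same values, the separation at 3 months is a description.

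Sums of other markers in the same spinal cords are set beside this. Of those given here, the granulocyte sums alone were apart between the genotypes at 3 months, and the others overlapped. Summed over 9 measured markers of bone marrow granulocytes, the signal was 2629 to 4624 in KO, with 9 markers above background, and 655 to 1842 in WT at 3 months, with 7 above background. At 6 months it was 667 to 1055 in KO and 415 to 1120 in WT. Spinal cord neuron markers summed to 2008 to 2215 in KO and 2055 to 2515 in WT at 3 months, dorsal root ganglion markers (7 measured) to 509 to 947 in KO and 472 to 1530 in WT, and markers of brainstem nuclei (9 measured, 4 above background in both groups) to 116 to 131 in KO and 117 to 137 in WT. Meninges and fibroblast markers (12 measured) summed to 2698 to 4517 in KO and 2100 to 4239 in WT at 3 months. Skeletal muscle markers summed to 1684 to 4935 in KO and 1072 to 14772 in WT. The labels do not say which levels of the cord each piece held. The part of these signals and of the dissection in the Hox differences was not tested.

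Differences within single groups were largest in Hoxa3 and Hoxd1. Hoxa3, a gene of the throat and neck, had 3.48, 5.38 and 4.56 in KO and 4.59, 5.03 and 3.91 in WT at 3 months, against 4.21, 4.17 and 4.18 in KO and 4.04, 4.06 and 3.78 in WT at 6 months. Its SD within groups was 0.56, the highest of the 34 members. Its other probe sets had an SE of 0.13 to 0.16 for KO minus WT, against 0.23 for the one used. These SE values pool the spread of all 4 tissues, and the SD of the other probe sets within spinal cord groups is not given here. Hoxd1 had 4.17, 4.23 and 4.08 in KO and 4.72, 5.25 and 4.48 in WT at 3 months, and 3.33, 5.10 and 4.50 in KO and 4.56, 4.38 and 3.79 in WT at 6 months. Hoxb13 (SD within groups 0.37) had 2.39, 2.78 and 3.56 in KO and 2.58, 3.08 and 2.72 in WT at 3 months. The 3 mice of a group thus spanned up to 1.90 log2 units in the probe set used for Hoxa3. The 25 genes above background had a median SD, pooled over the 4 spinal cord groups, of 0.20, against 0.12 over all probe sets.

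In cerebellum and midbrain, KO and WT did not differ in any member by limma at either age, and 0 members had an unadjusted p under 0.05. The shares of all probe sets called were 0.548% and 0.182% in cerebellum and 0.242% and 0.142% in midbrain at 3 and 6 months. The differences of the members lay between -0.32 and 0.20 in these 4 comparisons. No member was above background in cerebellum.

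In liver, 0 members were called at 3 months, where 9.44% of all probe sets were, and 2 at 6 months, where 11.5% were. Hoxb2 had 4.89, 5.37 and 4.71 in KO and 4.31, 3.90 and 4.92 in WT at 6 months (difference 0.61, SE 0.20, adjusted p = 0.0401 by limma). Its groups overlapped through WT mouse 3, and the call was lost without 4 of the 6 mice in turn (adjusted p between 0.00456 and 0.317). It was lost without WT mouse 1, WT mouse 2, KO mouse 122970 or KO mouse 122972, and when liver was fitted alone (adjusted p = 0.492). Hoxb8, which acts in blood progenitors and microglia, had 2.93, 3.07 and 2.81 in KO and 2.53, 2.56 and 2.63 in WT (difference 0.36, SE 0.10, adjusted p = 0.0171). Its groups did not overlap, as in 18.2% of all probe sets, but all 6 values were below the background limit of liver. Its call was lost without WT mouse 1, WT mouse 2 or KO mouse 122972 (adjusted p up to 0.107) and with liver fitted alone (0.201).

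**Figure D5:**
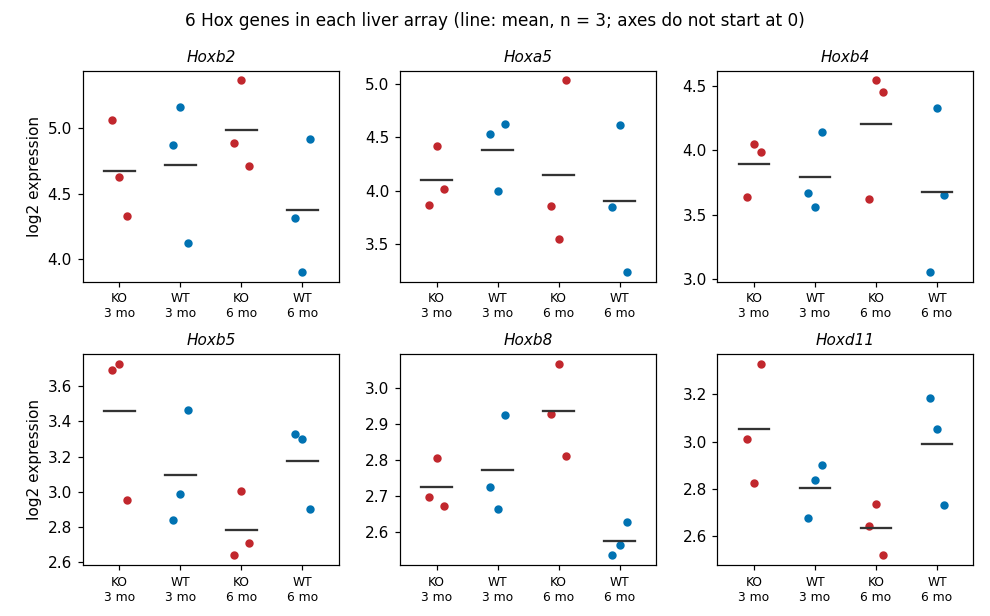
Log2 expression (y) of Hoxb2, Hoxa5, Hoxb4, Hoxb5, Hoxb8 and Hoxd11 in each liver array (points) with the group mean (line, n = 3), for KO and WT at 3 and at 6 months (x). Hoxb4 lies between 3.05 and 4.54 over the 12 livers; at 6 months the 3 KO points of Hoxb8, at 2.81 to 3.07, lie above the 3 WT points, at 2.53 to 2.63.

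Age was compared within each genotype, where each age is 1 cohort of mice, so that age and cohort cannot be told apart. In WT spinal cord 1 member was called, while 0.242% of all probe sets were. Hoxd4 had 5.90, 5.45 and 5.28 at 6 months and 6.32, 5.93 and 6.56 at 3 months (difference -0.73, SE 0.16, adjusted p = 0.0380 by limma). The ages did not overlap in Hoxd4, as in 18.5% of all probe sets, but the call was lost without any 1 of 4 mice, namely WT mouse 1 or 3 at 3 months or WT mouse 2 or 3 at 6 months (adjusted p up to 0.277). In KO spinal cord Hoxd4 had 5.62, 5.72 and 5.80 at 6 months and 5.79, 5.76 and 5.86 at 3 months, and 0 members were called, against 0.091% of all probe sets. The difference between the genotypes in this age change did not pass (0.64, SE 0.23, adjusted p = 1.00). No member was called by age in cerebellum or midbrain, where the shares of all probe sets called were 0.0844% in KO cerebellum, 1.13% in WT cerebellum, 0.00444% in KO midbrain and 0.258% in WT midbrain. The genotype difference itself changed with age in 0 members in spinal cord, cerebellum or midbrain (0.0533%, 0.0577% and 0.0444% of all probe sets) and in 3 in liver (7.14%). It did not differ between spinal cord and cerebellum, midbrain or liver in any member by this test (0.0533%, 0.0111% and 4.45% of all probe sets).

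In liver 3 members were lower at 6 months in KO, where 10.9% of all probe sets were called and 5.22% were lower, and 1 in WT, where 10.7% were called and 4.66% were lower. Hoxb5, a gene of gut nerve cells and shoulder position, had 2.64, 3.00 and 2.71 at 6 months and 3.69, 3.73 and 2.96 at 3 months in KO (difference -0.68, adjusted p = 0.00292 by limma). Hoxd11 had 2.64, 2.74 and 2.52 at 6 months and 3.01, 2.82 and 3.33 at 3 months in KO (difference -0.42, adjusted p = 0.0211). Hoxd12 had 2.20, 2.40 and 2.55 at 6 months and 2.68, 3.11 and 2.39 at 3 months in KO (difference -0.34, adjusted p = 0.0432). Hoxc13, a gene of hair and nail, had 2.74, 3.06 and 2.54 at 6 months and 3.36, 3.43 and 3.33 at 3 months in WT (difference -0.60, adjusted p = 0.00545). Of these genes Hoxb5 alone was above background in any liver group, in 1 of 4, and Hoxb5 and Hoxd12 overlapped between the ages. The call of Hoxd11 was lost without KO mouse 122970 or 122973 at 3 months or 122973 at 6 months (difference down to -0.28, adjusted p up to 0.179). That of Hoxd12 was lost without KO mouse 122970 or 122972 at either age (difference down to -0.15 and adjusted p up to 0.401, without 122972 at 3 months). That of Hoxc13 was lost without WT mouse 3 at 6 months (0.0550), and that of Hoxb5 was kept without each of the 6 mice. With liver fitted alone 0 members were called in KO and 0 in WT. The part of the muscle and adipocyte signals of KO liver at 3 months in the KO calls was not tested.

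The proteins that work with or on Hox genes were examined as lists in the same fit, described by counts, to be read against 19.6% of all probe sets higher and 21.8% lower in spinal cord than in midbrain. Of 10 measured TALE cofactors, homeodomain partners such as PBX and MEIS proteins, 4 were higher and 1 lower in spinal cord than in midbrain. Meis1, a DNA-binding partner of Hox proteins, differed by 0.99 (SE 0.06). It was higher still in cerebellum (7.48 to 7.79, against 6.23 to 6.69 in spinal cord), where no Hox member was above background. Of 21 measured Polycomb genes, whose products keep silent Hox genes silent, 4 were higher and 12 lower, within -0.42 and 0.29. Of 10 measured Trithorax genes, which oppose them, 1 was higher and 5 lower. These lists had median differences of 0.16, -0.13 and -0.15, against -0.02 for all probe sets, and 0 of their genes were called between KO and WT in spinal cord at either age.

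Genes upstream of Hox expression in the embryo, such as Cdx and retinoic acid genes, gave 5 higher and 1 lower of 16 measured in spinal cord against midbrain, beside 19.6% and 21.8% of all probe sets. Cdx1, Cdx2 and Cdx4 did not pass, with differences of -0.07, -0.13 and 0.03. Egr2, which patterns hindbrain segments in the embryo and drives myelin genes in Schwann cells, differed by 2.41 (SE 0.10). Egr2 was also the only gene of these lists called between KO and WT in spinal cord. At 3 months Egr2 had 5.68, 5.33 and 6.30 in KO, against 4.46, 4.67 and 4.98 in WT (difference 1.07, SE 0.20, adjusted p = 0.00283 by limma), with no overlap. At 6 months it had 5.46, 5.54 and 5.57 in KO and 4.99, 5.46 and 5.24 in WT (difference 0.29, SE 0.20), which did not pass. In liver Cyp26a1, which breaks down retinoic acid, was lower in KO at 3 months (difference -1.66, SE 0.28, adjusted p = 8.37e-05) and at 6 months (-1.47, SE 0.28, adjusted p = 0.000328), where its 12 arrays lay between 5.39 and 8.40.

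Of 18 measured noncoding and neighbouring genes, 6 were higher and 3 lower in spinal cord than in midbrain, beside 19.6% and 21.8% of all probe sets. Hoxb5os, a noncoding gene named for Hoxb5, had a median of 7.24 in spinal cord, against 2.66 in midbrain and 3.57 in liver. Haglr, the antisense gene of the Hoxd cluster, had 5.50 to 6.08 in spinal cord, against 2.31 to 2.66 in midbrain. Their spinal cord and midbrain values were far apart. Hoxa11os and Hoxd3os1 differed by 0.06 and 0.03 and did not pass, and Evx2, a homeobox gene beyond the 5′ end of Hoxd, differed by -0.07.

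Of 22 measured homeobox genes of forebrain and midbrain, 2 were higher and 14 lower in spinal cord than in midbrain, beside 19.6% and 21.8% of all probe sets. Lhx9 had 2.44 to 2.98 in spinal cord and 7.18 to 7.73 in midbrain (difference -4.79, SE 0.08). Otx2, which sets the hind border of the midbrain in the embryo, had 2.04 to 2.73 in spinal cord and 6.79 to 7.25 in midbrain. Neither gene's spinal cord values overlapped with its midbrain values. In cerebellum Otx2 was about as high as in midbrain, at 6.29 to 7.43, while Lhx9 had 2.60 to 2.99. The 2 higher genes were Nkx6-1 and Nkx2-2, factors of the ventral neural tube and of oligodendrocytes, with differences of 1.35 and 0.41.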

How the data were processed

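RNA of 4 tissues was hybridised to Affymetrix HT mouse genome array plates, which read transcripts near their 3′ end. The deposited table holds log2 values from Robust Multichip Average (background correction, quantile normalization, probe summary), computed by the authors, with R 2.14.0 in the submitters' processing notes. Of 45141 rows, 104 controls were left out. By the platform annotation, 28898 probe sets carried 1 symbol, 551 carried more and 15588 carried none. All arrays were normalized together, so levels between tissues rest on that scaling. Scanner intensities were not analysed here.

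With limma 3.58.1 and statmod 1.5.0 under R 4.3.3, 1 model of 16 group means was fitted to all 45037 probe sets, with empirical Bayes moderation (32 residual and 4.97 prior degrees of freedom). Tests were two-sided, with Benjamini-Hochberg adjustment over all probe sets and a threshold of 0.05. Precision rests on 3 mice a group: over all probe sets the SD of a group had a median of 0.18 in liver and of 0.10 to 0.11 in the nervous tissues. The model gave each probe set 1 spread for all 4 tissues, so that an SE is not that of 1 tissue alone. The steps were tested on simulated data with 1 spread per probe set for all 4 tissues. Spreads that differ between tissues were not simulated. Marker sums add linear values over a list. Positions and sequences came from RefSeq (GRCm38.p6).

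The members and lists were chosen with earlier results of these data known. Values per array were given for the gene of each paralog group with the largest spinal cord minus midbrain difference, members called between genotypes or in an interaction, the largest age and liver differences, and the 3 most variable members in spinal cord. Hoxc4, Hoxd4, Hoxa5, Hoxc8, Hoxd9 and group 10 at 3 months, and genes outside the clusters, were chosen after their values were seen.

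Alternatives were other probe sets per gene, stricter thresholds, a background filter, other priors, separate fits, renormalization within tissues, the nested F method, a block for the mouse, single genotypes and ages, and each mouse left out.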

Additional observations from a re-analysis of the deposited data

Results flagged for a closer look

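In liver, the KO minus WT difference itself differed between the ages in 3 members, by the interaction contrast of limma, where 7.14% of all probe sets passed. KO liver at 3 months, a group of this contrast, also held the muscle and adipocyte signals given above, and their part was not tested. Hoxb5 changed by -0.75 (SE 0.21, adjusted p = 0.0245). At 6 months it had 2.64, 3.00 and 2.71 in KO and 3.33, 3.30 and 2.90 in WT, and at 3 months 3.69, 3.73 and 2.96 in KO and 2.84, 2.99 and 3.47 in WT. The call of Hoxb5 was lost in 8 of 12 fits that left out 1 mouse (adjusted p up to 0.1003), and kept without WT mouse 3 or KO mouse 122973 at 3 months and without WT mouse 3 or KO mouse 122972 at 6 months.

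Hoxd11 changed by -0.61 (SE 0.17, adjusted p = 0.0255). It had 2.64, 2.74 and 2.52 in KO and 3.19, 3.05 and 2.73 in WT at 6 months, and 3.01, 2.82 and 3.33 in KO and 2.68, 2.84 and 2.90 in WT at 3 months. Its mean was below the background limit in each of the 4 liver groups. The call was lost in 5 of 12 such fits (adjusted p up to 0.105), without WT mouse 1 or KO mouse 122973 at 3 months and without WT mouse 1 or 2 or KO mouse 122973 at 6 months.

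Hoxd13, a gene of the digits, changed by -0.59 (SE 0.18, adjusted p = 0.0427). It had 2.92, 2.44 and 2.49 in KO and 2.54, 3.31 and 2.96 in WT at 6 months, and 2.59, 2.82 and 3.08 in KO and 2.58, 2.59 and 2.50 in WT at 3 months. The probe set was not above background in any liver group, and the second probe set of Hoxd13 gave 0.0056. The call was lost in 9 of 12 such fits (adjusted p up to 0.188), and kept without KO mouse 122970 at either age and without WT mouse 1 at 6 months.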

How the results depend on the processing

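The counts of members higher in spinal cord than in cerebellum (28), midbrain (28) and liver (25) kept within 1.5 times under each alternative run, and the order of spinal cord above midbrain was kept by each named gene, except Hoxd12, which was -0.041 with only KO at 6 months. Calls by genotype and age were few and changed with most choices. With an adjusted p under 0.01, liver at 6 months had 0 members called between KO and WT, WT spinal cord had 0 by age, KO liver had 1 by age and the liver interaction had 0. With each tissue fitted alone these counts were 0, 0, 0 and 0, and that of WT liver by age was 0. With each tissue and age fitted alone, and with nested F decisions, liver at 6 months had 0. With probe sets above background in 1 group, KO liver had 1 by age and the liver interaction 1. Renormalization within tissues gave 0 by age in WT spinal cord and 2 in WT liver, and a trended and robust prior gave 2 in WT liver. Members higher in liver than in midbrain were 30 and fell to 18 at a fold of at least 1.2, 3 at a fold of at least 2, 17 after centring on receptors, 16 with only KO at 6 months, 19 with only WT at 3 months and 16 with only WT at 6 months. Those higher in liver than in cerebellum were 29 and fell to 3 at a fold of at least 2, 12 after centring, 18 with only KO at 6 months, 19 with only WT at 3 months and 14 with only WT at 6 months. The Hoxd13 interaction in liver was 0.0056 with the probe set chosen over the other 36 or all 48 arrays. The causes were not tested.

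Leaving out 1 mouse at a time gave 0 to 2 members between KO and WT in spinal cord at 3 months, the 2 being Hoxc5 (-0.79, SE 0.17, adjusted p = 0.0257) and Hoxc10 (0.58, SE 0.13, adjusted p = 0.0461) without WT mouse 2. With all mice, the second probe set of Hoxc5 gave -0.05 (SE 0.12) there, against -0.51 (SE 0.17) for the one used. The same procedure gave 0 to 2 in liver at 3 months, 0 to 5 in liver at 6 months, 0 to 1 by age in WT spinal cord, 1 to 4 by age in KO liver, 1 to 3 by age in WT liver, 0 to 3 in the liver interaction and 0 to 2 in the genotype difference between spinal cord and liver. One member, Hoxa4, was higher in cerebellum than in midbrain without WT mouse 3 at 3 months, so that this count ran between 0 and 1.

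With the mouse as a random replicate block (consensus correlation 0.03) or the mouse number shared by both ages (-0.0018), no count moved by over 1.5 times. Deviations of 1 mouse in different tissues had a median correlation of 0.05, against -0.02 between mice, and those of equal numbers at both ages lay between -0.15 and 0.09. Since tissues of 1 mouse hardly correlated either, these values cannot tell whether the mouse numbers pair the ages.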
